A study of Mus musculus with 6 samples.

Results

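The Skint genes encode cell-surface proteins of the immunoglobulin superfamily that are related to the butyrophilins, and their name stands for selection and upkeep of intraepithelial T cells. The 10 members described here, Skint1 to Skint7 and Skint9 to Skint11, were taken by gene name from the 54532 genes of the count table, and all 10 were found and passed the filter on low counts. The table comes from 6 Smart-seq2 libraries, a full-length cDNA method for small amounts of RNA. By the methods, each was made from 500 sorted events of dissociated dorsal epidermis. The mice were male and female C57BL/6 animals aged 4 weeks, with no transgene, knockout or drug in either group. The 3 NCAM-enriched libraries hold DAPI-negative cells, as live cells are, bound by beads and then sorted for polysialylated NCAM, the surface mark used to enrich Merkel cells, the touch-sensing neuroendocrine cells of the skin. The 3 bulk skin libraries hold DAPI-negative cells with no such selection, a group that can include Merkel cells too.

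Dendritic epidermal T cells live between the keratinocytes of mouse epidermis and carry an invariant gamma delta T cell receptor. Skint1, made by thymic epithelium and by keratinocytes, is needed for the thymic selection of these cells. In the skin, keratinocytes are the known source of Skint transcripts, and T cells are the cells tied to their function. By the methods, both groups were sorted from dissociated epidermis of the same kind of mice. The bulk skin libraries are titled total skin, however, and 8 fibroblast genes summed to 16081, 22067 and 11874 CPM in them. The groups differ in the T cells that sorting left in them, not in a loss of T cells from the skin. The comparison sets the levels of the ligand family beside T cell content after sorting.

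The members form a single cluster on chromosome 4, from position 111972923 to 114245028 (GRCm38, GENCODE M21), and no other protein-coding gene lies within this stretch of 2.27 Mb. Of the 14 other genes annotated there, which are pseudogenes, small RNAs and an antisense RNA, none passed the count filter and 7 had no count in any library. The plus strand carries Skint7, Skint1, Skint4, Skint3, Skint2 and Skint11, and the minus strand carries Skint9, Skint10, Skint6 and Skint5. Gene structure splits the family. The longest coding form of Skint5 has 59 exons and that of Skint6 has 49, while the other members have 7 to 11. Their longest coding sequences are most alike between Skint5 and Skint6, with 88.5% identity over 3718 aligned bases, and between Skint9 and Skint10, with 86.1% over 955 bases. Over the 23 of 45 pairs that aligned along at least 50% of the shorter sequence, identity ran from 62.7% to 88.5%.

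Some related members have alike starts as well, and others do not. Skint2 and Skint4, with 83.7% coding identity, had windows that aligned over only 36 bases. Skint4 has 2 RefSeq starts, and only the first was used here and in the motif search. The RefSeq window of Skint2 begins at position 112613490, inside the GENCODE gene, which begins at 112557194. Other starts of these genes were not compared. The windows shown are those of pairs with alike starts. They are the 250 bases before the RefSeq start (GRCm38.p6) of Skint5 (chr4:113999504-113999753, minus strand), Skint6 (chr4:113286974-113287223, minus strand), Skint10 (chr4:112774862-112775111, minus strand) and Skint11 (chr4:114163134-114163383, plus strand), written 5′ to 3′ along each gene. Capitals mark the longest run of letters that the members of a pair have in common, 26 bases in Skint5 and Skint6 and 20 bases in Skint10 and Skint11.
Skint5: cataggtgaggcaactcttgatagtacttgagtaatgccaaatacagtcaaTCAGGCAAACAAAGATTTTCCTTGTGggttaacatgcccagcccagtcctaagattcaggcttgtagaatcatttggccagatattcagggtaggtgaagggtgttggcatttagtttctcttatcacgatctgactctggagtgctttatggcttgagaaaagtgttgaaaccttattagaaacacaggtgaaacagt
Skint6: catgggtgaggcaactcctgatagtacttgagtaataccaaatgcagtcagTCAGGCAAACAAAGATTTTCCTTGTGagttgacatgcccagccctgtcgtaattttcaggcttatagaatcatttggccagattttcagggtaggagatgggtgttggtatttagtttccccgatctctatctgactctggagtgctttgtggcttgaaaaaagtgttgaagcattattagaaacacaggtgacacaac
Skint10: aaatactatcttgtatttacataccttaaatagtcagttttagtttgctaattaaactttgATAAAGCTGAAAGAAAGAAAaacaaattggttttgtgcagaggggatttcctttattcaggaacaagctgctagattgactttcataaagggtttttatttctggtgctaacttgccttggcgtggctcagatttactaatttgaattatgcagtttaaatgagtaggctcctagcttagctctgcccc
Skint11: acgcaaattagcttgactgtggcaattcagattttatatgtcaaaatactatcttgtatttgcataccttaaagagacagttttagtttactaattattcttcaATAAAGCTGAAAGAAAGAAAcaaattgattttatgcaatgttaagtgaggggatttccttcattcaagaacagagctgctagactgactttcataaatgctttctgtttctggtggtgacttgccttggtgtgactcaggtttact
The Skint5 and Skint6 windows aligned over 248 bases with 89.5% identity, and the shared run begins 199 bases before the start in both. The Skint10 and Skint11 windows aligned over 197 bases with 88.8% identity, and the run begins 189 bases before the start of Skint10 and 146 bases before that of Skint11. The last 5 bases of the Skint10 window are exonic in GENCODE M21. In windows of 300 bases that also hold the first 50 transcribed bases, searched on both strands, TATAAA was found in 6 of 10 members (Skint1, Skint2, Skint6, Skint7, Skint9 and Skint11) and in 14.2% of 27025 RefSeq promoters. Its place varied, with the first base at -40 in Skint1, -18 in Skint2 and -31 in Skint7 relative to the start. It lay at -177 and -130 in Skint9, at -218 in Skint11 and after the start, at 7, in Skint6. The E-box CAGNTG was found in 5 members, against 51.1% of all promoters, the AP-1 motif TGANTCA in 1 (Skint11), against 7.93%, and the GATA motif AGATAA in 0, against 11.4%. None of these motifs contains another.

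Reads of near-identical copies could be split between genes, and how the authors' counting treated reads that match several places is not given in the sources used here. The reads were single-end and 50 bases long. Of all 50-base words in the annotated transcripts, Skint1, Skint9 and Skint10 shared none with any other gene. Skint7 shared 6.83% with Skint8, Skint6 shared 4.64% with Skint5, Skint5 shared 3.97% with Skint6, and Skint11 shared 4.51% with the pseudogene Gm12813. The remaining members shared at most 2.11% with other genes. These shares count exact matches only. Skint6 also has 1.65% of its exonic bases in common with the antisense gene Gm12823, which had 1 count in all 6 libraries together. Skint8, a further family gene of the table that is not one of the 10 members, had 35, 28 and 107 counts in NCAM-enriched libraries 1 to 3, against 2, 8 and 14 in bulk skin.

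Library totals ran from 1343190 to 4481830 counts, so that 1 count was worth 0.216 to 0.773 normalised CPM (read counts scaled to the TMM-adjusted library size). The NCAM-enriched libraries differed more among themselves (Pearson's r of log2 CPM across genes, which are not independent replicates, 0.596 to 0.719) than the bulk skin libraries (0.855 to 0.882). Nothing says that libraries of a group came from separate animals, so p-values measure only the spread between these libraries, which may be technical.

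Skint transcripts made up a larger share of the RNA in the NCAM-enriched libraries. Summed over the 10 members, they took 0.0888%, 0.0520% and 0.0899% of the counts in NCAM-enriched libraries 1 to 3. The bulk skin libraries gave 0.0138%, 0.0189% and 0.0245%. The groups did not overlap: the exact 95% binomial interval of the lowest NCAM-enriched library was 0.0482% to 0.0560% and that of the highest bulk skin library was 0.0228% to 0.0262%, intervals that cover counting error only, since the reads carry no molecular identifiers. As normalised CPM the sums were 942, 539 and 969 against 143, 183 and 232. In bulk samples of sorted cells, more cells of a type and more RNA per cell cannot be told apart.

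**Figure D1:**
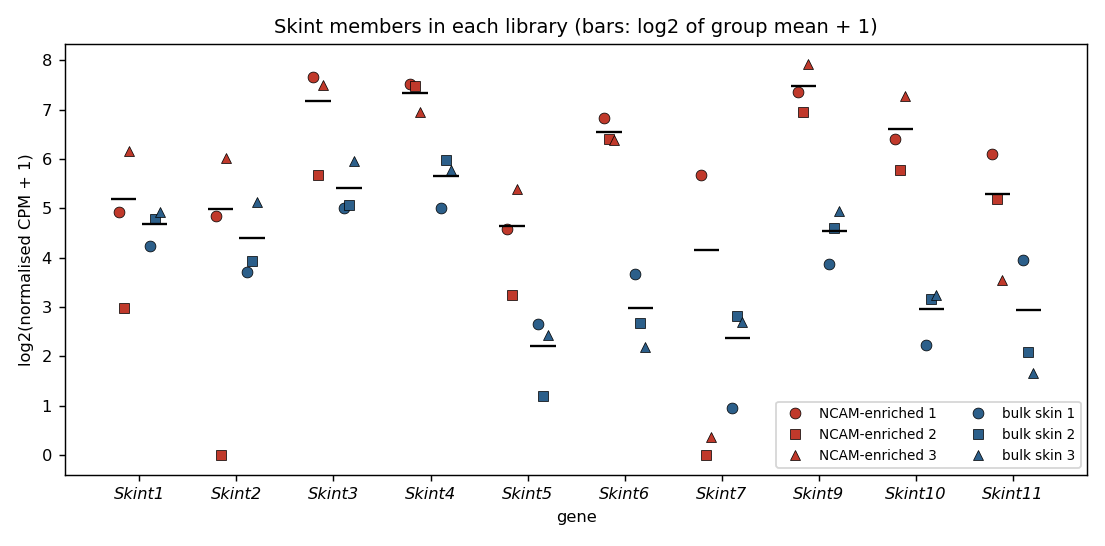
Level of each Skint member in each library, as log2 of the normalised CPM plus 1, with a symbol per replicate number and a bar at the group mean. All NCAM-enriched points (red) lie above all bulk skin points (blue) for 5 members, Skint4, Skint5, Skint6, Skint9 and Skint10, while Skint2 and Skint7 have a NCAM-enriched library at 0.

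Of the 10 members 3 rose in the NCAM-enriched group, Skint6, Skint9 and Skint10, and none fell (edgeR quasi-likelihood test, adjusted p at most 0.05 over 13157 genes). Over all genes tested, 1.04% were called higher and 1.55% lower, 2.59% in all. At an unadjusted p under 0.05, 7 members were higher and 0 lower, where 8.73% of all genes were higher. DESeq2 called 6 members higher, where it called 5.02% of all genes higher and 7.05% lower, and limma-voom called 4, where it called 2.67% higher and 6.45% lower. Neither called a member lower. The groups did not overlap, with NCAM-enriched higher, for 5 members and for 11.1% of all genes, and for no member in the opposite direction, against 19.3% of all genes. All 10 fitted log2 fold changes lay above 0, from 0.53 to 3.84, with a median of 2.26, and the median over all genes tested was -0.07.

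Skint10, a member with the usual short coding sequence, had the largest fitted difference. It was at 84.0, 54.1 and 154 CPM in NCAM-enriched libraries 1 to 3, against 3.73, 8.0 and 8.5 CPM for bulk skin. The lowest NCAM-enriched library was well above the highest bulk skin library, and the log2 fold change was 3.84 ± 0.64 (SE; edgeR adjusted p = 0.0225, 2.23e-07 to 0.187 over 15 alternative settings). Skint6, of the long many-exon pair, was steady in the NCAM-enriched group, at 113, 84.2 and 82.3 CPM, and low in bulk skin, at 11.8, 5.4 and 3.56 CPM. Its log2 fold change was 3.75 ± 0.63 (edgeR adjusted p = 0.0225, 1.83e-07 to 0.171 over the settings).

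Skint9, which with Skint3 has been tied to contacts between keratinocytes and epidermal T cells around wounds, had the highest mean CPM of the members in the NCAM-enriched group, 177 ± 61.6 (SD, n = 3) against 161 ± 32.5 for Skint4, although Skint4 was above it in libraries 1 and 2 and Skint3 in library 1. It was at 163, 123 and 244 CPM against 13.7, 23.3 and 29.9 CPM in bulk skin, again with no overlap (log2 fold change 2.98 ± 0.48, edgeR adjusted p = 0.0210, 7.42e-07 to 0.175 over the settings). These 3 calls needed all 3 bulk skin libraries. Without bulk skin library 1, 2 or 3, 0 members were called, with 5, 4 and 5 at an unadjusted p under 0.05, and 0, 0 and 1 of all genes were called higher. Without NCAM-enriched library 1, 2 or 3, 2, 5 and 4 members were called. Skint6 was the call lost without NCAM-enriched library 1 (edgeR adjusted p = 0.0516), and the log2 fold changes of Skint6, Skint9 and Skint10 stayed between 2.62 and 4.30 over all 15 settings.

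Skint4 and Skint5 did not overlap between the groups but were not called by edgeR. Skint4 was at 182, 177 and 123 CPM against 31.4, 62.0 and 54.0 CPM (log2 fold change 1.71 ± 0.42, edgeR adjusted p = 0.0670). DESeq2 and limma-voom called it, with adjusted p of 0.00541 and 0.0295, and its adjusted p ran from 0.00541 to 0.285 over the settings. Skint5, the long relative of Skint6, was rare, at 22.8, 8.5 and 40.9 CPM against 5.28, 1.3 and 4.39 CPM (2.72 ± 1.06, edgeR adjusted p = 0.206), and DESeq2 called it (adjusted p = 0.0410).

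Skint3 and Skint11 were higher on average but overlapped between the groups. Skint3 was at 202, 50.2 and 179 CPM against 31.4, 32.4 and 60.9 CPM, so that NCAM-enriched library 2 lay below bulk skin library 3 (1.79 ± 0.58, edgeR adjusted p = 0.133). DESeq2 called it (adjusted p = 0.0458), and without NCAM-enriched library 2 edgeR did too (2.18 ± 0.40, edgeR adjusted p = 0.0147, 0.0147 to 0.361 over the settings). Skint11 was at 68.0, 35.5 and 10.8 CPM against 14.6, 3.24 and 2.19 CPM, with NCAM-enriched library 3 below bulk skin library 1 (2.51 ± 1.06, edgeR adjusted p = 0.243).

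Skint1, the member needed for thymic selection, was not distinguished between the groups. It was at 29.2, 6.95 and 70.7 CPM in NCAM-enriched libraries 1 to 3, against 18.0, 26.6 and 29.6 CPM for bulk skin, so that the bulk skin values lay inside the NCAM-enriched range (0.53 ± 0.84, edgeR adjusted p = 0.797). Skint2 had no count in NCAM-enriched library 2, where 3 counts would be 2.32 CPM, and was at 27.6 and 64.4 CPM in libraries 1 and 3 against 12.1, 14.3 and 34.0 CPM (0.62 ± 1.29, edgeR adjusted p = 0.856). Skint7 rested on a single library. Of its 96 counts in the NCAM-enriched group 95 were in library 1, with 0 and 1 in libraries 2 and 3, against 3, 28 and 20 in bulk skin (2.01 ± 1.87, edgeR adjusted p = 0.629), and without NCAM-enriched library 1 its fitted difference was -4.24 (edgeR adjusted p = 0.268). The fitted differences of Skint1 and Skint2 without NCAM-enriched library 3 were -0.49 and -0.56.

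**Figure D2:**
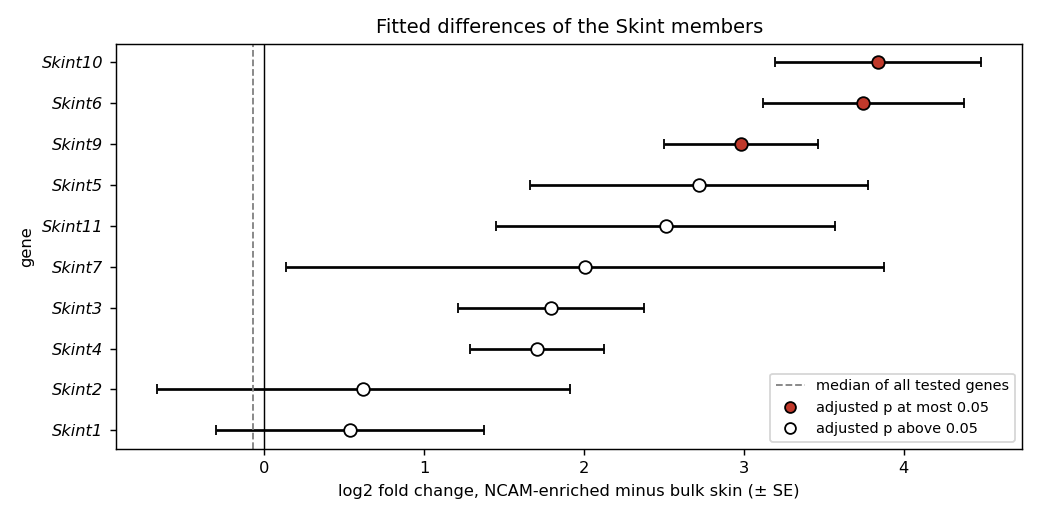
Fitted log2 fold change of each member, NCAM-enriched minus bulk skin, with its SE, filled in red where the edgeR adjusted p is at most 0.05. The values run from 0.53 for Skint1 to 3.84 for Skint10, and the dashed line marks the median of all genes tested, -0.07.

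Shares of the family within a library, a measure that no scaling of the libraries can change, did not overlap between the groups for 5 members and overlapped for the other 5. A family share has no counterpart over all genes. By CPM, 11.1% of all genes were apart with NCAM-enriched higher and 19.3% with NCAM-enriched lower. Skint9 took 17.3% to 25.2% of the Skint counts in the NCAM-enriched libraries and 9.57% to 12.9% in bulk skin. Skint10 took 8.92% to 15.8% against 2.61% to 4.38%, and Skint6 took 8.49% to 15.6% against 1.53% to 8.26%. Skint1 had 1.29% to 7.29% against 12.6% to 14.6% and Skint2 0% to 6.65% against 7.81% to 14.6%. The largest shares in bulk skin overlapped, with 12.7% to 32.8% against 21.96% to 33.96% for Skint4 and 9.31% to 21.4% against 17.8% to 26.2% for Skint3, as did those of Skint5, Skint7 and Skint11. Since these are shares of a whole, a gain of some members lowers the others, and the 5 are not independent results. The ratio of Skint9 to Skint1 counts was 5.58, 17.7 and 3.45 in NCAM-enriched libraries 1 to 3, against 0.759, 0.878 and 1.01 for bulk skin. That of Skint10 to Skint1 was 2.87, 7.78 and 2.17 against 0.207, 0.301 and 0.287. Neither ratio overlapped between the groups. The ratio of Skint6 to Skint1 was 3.85, 12.1 and 1.16 against 0.655, 0.203 and 0.120, again apart, while that of Skint2 to Skint1 overlapped, at 0.945, 0 and 0.912 against 0.672, 0.537 and 1.15. For the ratios of Skint9, Skint10 and Skint6 to Skint1 the exact two-sided permutation p was 0.1, the smallest that 3 against 3 can give, and for Skint2 it was 0.8 (0.133 and 0.8 after Benjamini-Hochberg adjustment over the 4 ratios). These ratios were picked after the values were seen, and none passed the threshold.

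Per kb of exonic sequence, the scale on which genes can be compared, Skint9 led in the NCAM-enriched group. Its level was 129 ± 44.9 CPM per kb (SD, n = 3), and its lowest library (89.5) was above the highest library of Skint3 (52.5), which followed at 37.4 ± 21.3. After these came Skint4 (36.8 ± 7.44), Skint11 (27.4 ± 20.6), Skint10 (26.0 ± 13.6), Skint6 (24.3 ± 4.45), Skint2 (12.9 ± 13.6), Skint1 (11.8 ± 10.7), Skint5 (5.24 ± 3.53) and Skint7 (4.24 ± 7.29), and from Skint3 downward no neighbours in this order differed beyond their spread. In bulk skin the levels were closer together, with Skint9 (16.3 ± 5.95), Skint4 (11.2 ± 3.64), Skint3 (10.8 ± 4.35), Skint2 (8.44 ± 5.06) and Skint1 (8.21 ± 2.0) ahead of Skint11 (4.79 ± 4.94), Skint6 (1.81 ± 1.13), Skint10 (1.80 ± 0.702), Skint7 (1.04 ± 0.704) and Skint5 (0.796 ± 0.455) CPM per kb. Here no neighbours in the order were apart beyond their spread. Skint1 and Skint2 were above Skint6 and Skint10 in every bulk skin library, and their means were below those of Skint6 and Skint10 in the NCAM-enriched group, with overlapping ranges.

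Along the chromosome, the 4 minus-strand genes, Skint10, Skint6, Skint9 and Skint5, had the 4 largest fitted log2 fold changes, 2.72 to 3.84, and the 6 plus-strand genes ran from 0.53 to 2.51. Skint5 and Skint11, which meet at this boundary, differed by less than the SE of either (1.06). The plus-strand gene Skint11 stood above Skint9 and Skint5 without bulk skin library 1 (3.72 against 2.69 and 3.05, and also above Skint10 at 3.52), without NCAM-enriched library 3 (2.90 against 2.62 and 2.05) and with scaling to the basal keratinocyte list (3.14 against 3.03 and 2.62). Without NCAM-enriched library 2 or 3, Skint7 was at 2.56 and 2.55, in the second case above Skint5. Without bulk skin library 2, Skint7 was also above Skint5 (2.32 against 2.28). The order by strand was noticed after the values were seen and was not tested. The minus-strand genes follow each other in the middle of the cluster with only Skint2 between Skint9 and Skint10. In this cluster, strand and position cannot be told apart.

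**Figure D3:**
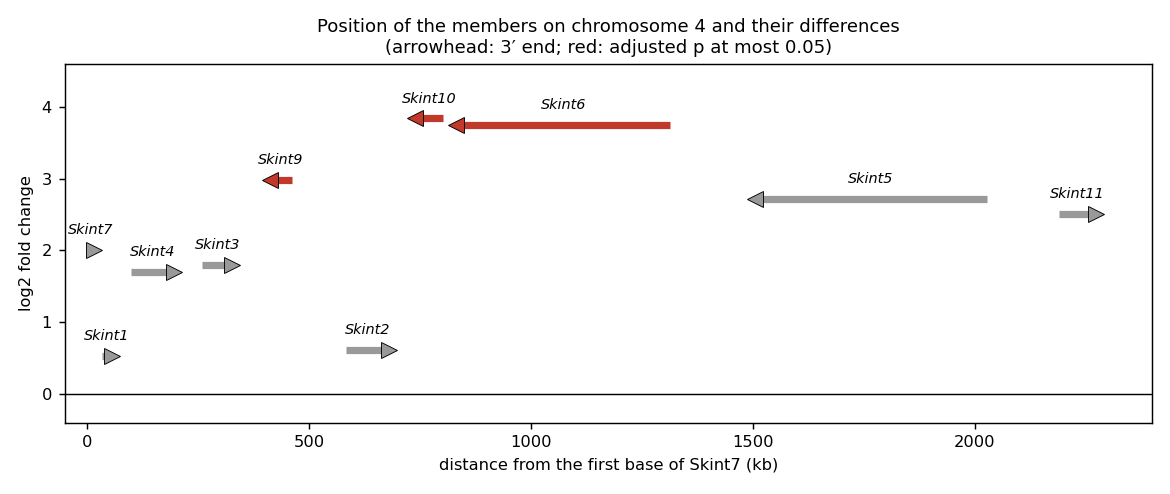
The 10 members drawn to scale along chromosome 4, in kb from the first base of Skint7, at the height of their log2 fold change, with arrowheads at the 3′ ends and called genes in red. The genes that point left, Skint9, Skint10, Skint6 and Skint5, have values of 2.72 to 3.84, and the genes that point right have 0.53 to 2.51, an order that Skint11 breaks without bulk skin library 1, without NCAM-enriched library 3 and with basal scaling.

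Over the 6 libraries, the members did not all vary together. Pearson's r of log2 CPM over the 45 pairs of members ran from -0.36 to 0.998 with a median of 0.47. Skint9 and Skint10, which share no 50-base word, were the closest pair (r = 0.998, n = 6), followed by Skint1 and Skint2 (r = 0.945), Skint4 and Skint9 (0.918) and Skint4 and Skint10 (0.905). Skint7 had no r above 0.43 with any other member. The libraries share their group and depth in these correlations, which are given as a description. The 5 genes outside the family whose log2 CPM followed the summed Skint level most closely, among 10660 genes whose mean CPM was 10 or more, were Trim2 (r = 0.997), Mboat2 (0.995), Mark2 (0.995), Pcdh1 (0.992) and Tcf20 (0.991), over 6 libraries.

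**Figure D4:**
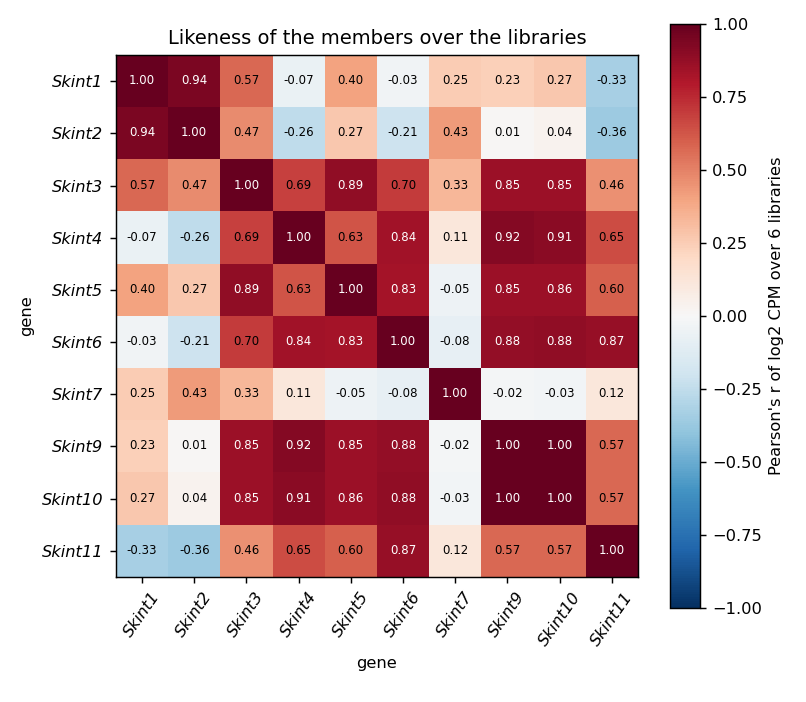
Pearson's r of log2 CPM between members over the 6 libraries, from -0.36 (blue) to 0.998 (red). Skint3, Skint4, Skint5, Skint6, Skint9 and Skint10 form a block with r of 0.63 to 0.998, Skint1 and Skint2 a pair with 0.94, and Skint7 stands alone.

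The T cells tied to this family were nearly absent from the NCAM-enriched libraries. Of the 13 listed genes of the gamma delta T cell receptor and CD3 complex 7 were found by name and 6 tested, and all 6 fell (edgeR, adjusted p at most 0.05). The summed CPM of the 7 was 1.06, 2.32 and 13.6 in NCAM-enriched libraries 1 to 3, against 2090, 2314 and 2468 for bulk skin. Cd3d, a chain of the receptor complex, had 0 counts in all 3 NCAM-enriched libraries and 2770 in bulk skin. Klrk1, the activating receptor NKG2D, had 0 against 1365 counts, and Jaml, a costimulatory receptor of these cells, had 0, 0 and 35 counts in the NCAM-enriched libraries against 1575 in the bulk skin group (edgeR adjusted p = 0.0667). Of 21 tested genes of the wider T cell list 9 fell and 0 rose, with 15 lower and 2 higher at an unadjusted p under 0.05. DESeq2 called 14 lower and limma-voom 15, and each called 0 higher. Between the sorted groups, the Skint sum was higher where T cell transcripts were fewer. Within the groups it was not: NCAM-enriched library 3 had the highest T cell receptor sum of its group and the highest Skint sum, and bulk skin library 3 was highest and library 1 lowest of their group in both sums. With library sizes computed without the immune and red blood cell lists, the median log2 fold change over the members was again 2.26 and 3 members were called.

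Among the other genes listed for exchange between keratinocytes and epidermal T cells, which include Ahr and Igf1, no gene was called higher by any of the 3 tools. None of 15 tested genes of the 22 listed was called by edgeR, with 0 higher and 2 lower at an unadjusted p under 0.05, and DESeq2 and limma-voom each called 0 higher and 2 lower. Their median log2 fold change was -0.47, against 2.26 for the Skint members, a difference between lists that was not tested. Cxadr, whose protein binds Jaml, had a log2 fold change of 0.27 ± 0.36 and Plxnb2, the receptor of Sema4d, one of 0.82 ± 0.68. Ccl27a, a keratinocyte chemokine for T cells, was at 376 ± 238 against 813 ± 272 CPM (SD, n = 3; edgeR adjusted p = 0.287), and Il7, a growth factor of T cells, had 2 against 99 counts (edgeR adjusted p = 0.113). Relatives of the Skint genes were at or near 0 in most libraries. None of 10 butyrophilin-family genes passed the count filter, 9 had no count in the NCAM-enriched group, and Ermap held all of the list's 69 counts there. In bulk skin only 2 of the 10 had no count. The list summed to 0, 51.8 and 0.568 CPM in NCAM-enriched libraries 1 to 3, against 10.6, 30.0 and 6.31 CPM for bulk skin.

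Markers of suprabasal keratinocytes, the differentiating layers, were higher in the same libraries as the Skint family. Of 14 tested suprabasal markers 8 rose (edgeR, median log2 fold change 3.64). Krt77, a suprabasal keratin, was at 7463 ± 2686 against 306 ± 29.0 CPM (SD, n = 3). Summed CPM of suprabasal markers reached 46339, 16855 and 28878 in NCAM-enriched libraries 1 to 3, against 6087, 4317 and 4823 for bulk skin. Per 1000 CPM of these markers, the Skint sum was 20.3, 32.0 and 33.6 CPM in the NCAM-enriched libraries and 23.5, 42.3 and 48.2 CPM in bulk skin, ranges that overlap. Their part in the Skint difference was not tested.

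Basal keratinocyte markers gave no call. None of 12 was called by edgeR, DESeq2 or limma-voom, none had an unadjusted p under 0.05 in edgeR, and their median log2 fold change was -0.00. Per 1000 CPM of the basal list the Skint sum was 88.3, 59.96 and 29.6 CPM against 8.10, 11.7 and 17.1 CPM, with no overlap. With libraries scaled to this list in place of TMM, under which the all-gene median went from -0.07 to 0.14, the same count of 3 members was called and the members' median was 2.55.

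**Figure D5:**
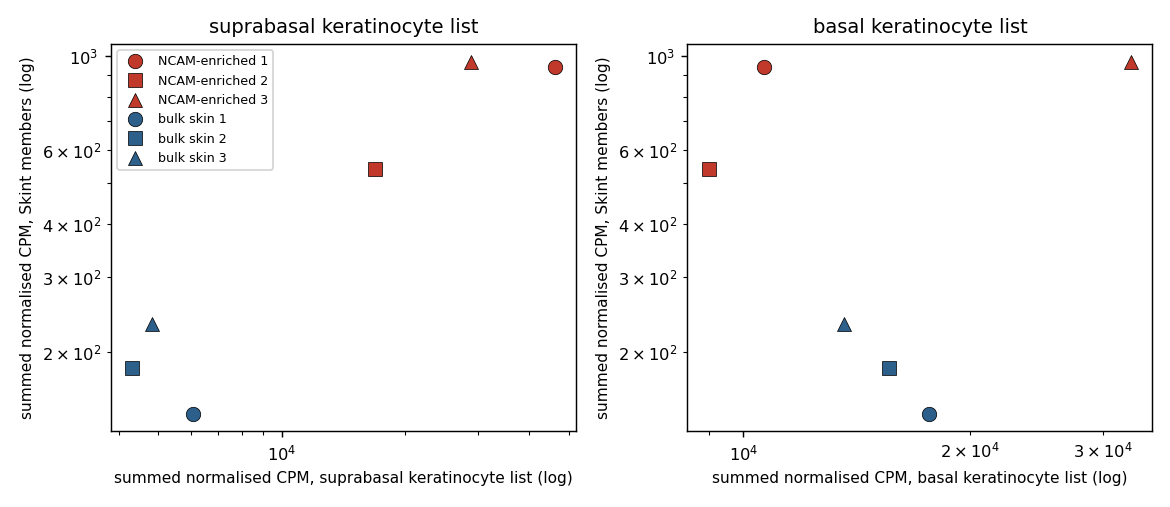
Summed normalised CPM of the 10 Skint members against that of the suprabasal (left) and basal (right) keratinocyte lists, both axes logarithmic, with a point per library. On the left the 3 NCAM-enriched libraries (red) are higher on both axes than bulk skin (blue), and on the right they are higher only for the Skint sum, since their basal sums of 8994 to 32743 CPM enclose those of bulk skin.

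The label of the sorted cells was checked against markers. Of 11 tested Merkel cell genes 5 rose, among them Krt20, a keratin of Merkel cells, at 131 ± 57.9 against 14.0 ± 1.72 CPM (SD, n = 3; edgeR adjusted p = 0.0196), and the list summed to 1707, 1771 and 498 CPM against 191, 152 and 143 CPM. The NCAM-enriched libraries thus held Merkel cell and suprabasal keratinocyte transcripts side by side. Within the NCAM-enriched group the Merkel cell and Skint sums had no common order, since libraries 1 and 2 were close in the first and far apart in the second (942 and 539 CPM). Of the remaining cell types, 11 of 14 Langerhans and myeloid genes and all 4 tested red blood cell genes fell, 1 of 11 hair follicle genes rose (Krt17, a keratin of the follicle) and 1 fell (Lgr6, of follicle stem cells), and none of 8 fibroblast, 3 melanocyte and 8 sebocyte genes was called by edgeR. At an unadjusted p under 0.05, edgeR gave 1 lower fibroblast gene, 0 melanocyte genes, and 2 higher and 1 lower sebocyte genes. DESeq2 called 0 fibroblast genes, 0 melanocyte genes, and 1 higher and 1 lower sebocyte gene, and limma-voom called 3 lower fibroblast genes, 0 melanocyte genes and 1 lower sebocyte gene. The hair follicle list summed to 12221, 6608 and 29486 CPM in NCAM-enriched libraries 1 to 3, against 2756, 2734 and 3351 CPM for bulk skin. In the NCAM-enriched libraries most of this sum was Krt17, at 6877, 4914 and 17761 CPM. Most of the rest was Krt79, at 4951, 961 and 10334 CPM. Krt79 did not overlap between the groups (log2 fold change 3.24 ± 0.81, edgeR adjusted p = 0.0691). DESeq2 and limma-voom each called 2 follicle genes higher and 2 lower. Only 3 of the 11 tested follicle genes had a fit above 0, and over all 11 the median was -0.50. The sum, though not most of its genes, was thus higher in the same group as the Skint sum. In both groups it was highest in library 3, where the Skint sum was highest too. The part of the follicle genes in the Skint difference was not tested. The fibroblast sum was uneven, at 888, 41035 and 169 CPM in NCAM-enriched libraries 1 to 3, against 16081, 22067 and 11874 CPM for bulk skin. It was thus far lower in NCAM-enriched libraries 1 and 3 than in any bulk skin library. NCAM-enriched library 2, where it was high, was also the library with no Skint2 or Skint7 count. Whether the fibroblast sum has a part in those values or in the Skint difference was not tested.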

How the data were processed

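The table deposited by the authors holds raw read counts per gene, with no normalization. Per the methods, bbduk and bbmap served to clean the reads, STAR to place them on GRCm38 and featureCounts to count them per gene. Not given in the sources used here are the annotation release, the strand setting and the treatment of multi-mapped reads. Groups were taken from the labels. All genes were fitted in R 4.3.3 with edgeR 4.0.16 (filterByExpr, TMM, quasi-likelihood F-test) and adjusted by Benjamini-Hochberg over 13157 genes. The SE was derived from the test, as the size of the log2 fold change over the root of F. DESeq2 1.42.0, voom in limma 3.58.1, other scalings and filters, a replicate block and fits without each library were alternatives. On simulated counts of this design with 13157 genes, the test recovered 3% of those changed 4-fold and 51% of those changed 16-fold, with 4 unchanged genes called. Exact permutation tests used scipy 1.17.1. Gene positions, exonic length and transcripts came from GENCODE M21 and start sites from RefSeq, where all 10 members matched. Gene lists were drawn up from textbook knowledge, and other genes are named by the 2 smallest p and the highest level in a list or by likeness to the Skint sum. Cxadr, Plxnb2, Klrk1, Jaml, Krt79 and Skint8 were named outside this rule, after their values were seen. The members and lists were chosen with earlier results of these data known.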

Additional observations from a re-analysis of the deposited data

How the results depend on the processing

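The count of 3 Skint members called higher became 6 with DESeq2 and ran from 0 to 5 without a single library, and it was 0 when any of the bulk skin libraries was left out. Under the replicate block it was 2, since Skint10 had an edgeR adjusted p of 0.0532. Same-numbered libraries were not treated as pairs, because their deviations from group means had correlations of 0.0226, 0.000250 and -0.00436. No setting called a member lower. Over all genes, there were 137 higher and 204 lower calls. DESeq2 made 661 and 928, limma-voom 351 and 849, edgeR without the count filter (1 count or more) 769 and 741, and edgeR with the replicate block 50 and 92. Leaving out 1 library gave 0 to 1099 higher and 13 to 733 lower calls. The count of 0 belongs to the fits that lack bulk skin library 1 or 2, in which 2115 and 2237 genes in both directions had an edgeR p below 0.05 before adjustment. The fitted log2 fold change turned negative for Skint2 with limma-voom (-0.55) and with the block (-0.27), and for Skint7 with limma-voom (-0.79) and with the block (-2.22). Limma-voom and the block also moved the median of all genes to -0.37 and -0.36. Without a single library the values of Skint1, Skint2 and Skint7 ran from -0.49 to 1.01, from -0.56 to 1.21 and from -4.24 to 2.56. The other 7 members stayed above 0 in all 15 settings. The cause of these shifts was not tested. Skint2 and Skint7 had no count in NCAM-enriched library 2, the shallowest, where 3 counts would be 2.32 CPM.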
